A study of Mus musculus with 2 samples.

Results

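The genes described here are 10 regulators and enzymes of the developing forebrain: Emx1, Fezf2, Eomes, Tbr1, Nkx2-1, Gsx2, Olig2, Sox1, Gad1 and Gad2. They were taken by symbol, and each matched exactly 1 of the 43346 mouse gene IDs in the deposited tables. The tissue was the embryonic face, dissected as facial prominence from B6NCrl mice aged 12.5 embryonic days, with no allele or treatment named in the labels. Each of the 2 total RNA libraries was a biological replicate from its own pool of embryos of both sexes, 120 for replicate 1 and 88 for replicate 2. Single embryos therefore cannot be seen, and no forebrain sample is analysed here. The genes were read as a check of how far the dissected face carried RNA of the adjoining forebrain. The series has 1 group, so levels are described and the pools are compared as libraries, with no test.

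The forebrain lies directly above the frontonasal part of the face. Its roof, the pallium, becomes the cortex and makes glutamatergic neurons. Its ventral part, the subpallium with the hypothalamus below it, makes most GABA neurons of the forebrain. Several regulators of these regions are also used elsewhere in the head, in olfactory epithelium, eye, pituitary, thyroid and cranial ganglia, so a transcript of such a gene does not by itself name its source.

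Summed expected counts, which are estimated reads per gene, were 27890681 in replicate 1 and 39969716 in replicate 2. Levels are given in TPM, the share a gene takes of all transcripts once its count is divided by its length, scaled to a fixed total. All 14 genes of a facial mesenchyme list reached 1 TPM in both libraries, with means from 21.3 TPM (Dlx2) to 331 TPM (Msx1), and Prrx1 was second at 153.99 and 147.97 TPM. Among them Barx1, a factor of the proximal arch, had 177.4 TPM in replicate 1 and 88.55 in replicate 2. Barx1 was the only gene of that list that differed 2-fold between the pools.

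Transcripts of all 10 forebrain genes were detected in both libraries, at low levels. Their means ran from 0.30 TPM for Eomes to 2.5 TPM for Nkx2-1, with a median of 1.15 TPM over the 10 genes. Taken by library, that median was 1.61 TPM in replicate 1 and 0.675 TPM in replicate 2. The median over all 21474 protein-coding genes was 5.24 TPM. Each of the 10 means was above those of 30.4% to 43.7% of protein-coding genes. Msx1, a homeobox gene of facial mesenchyme, had 336.19 TPM in replicate 1 and 325.34 in replicate 2. Fezf2, Nkx2-1, Olig2 and Gad2 reached 1 TPM in both libraries, which is 4 of 10 genes. Of all protein-coding genes, 61.8% did so. In such bulk tissue, fewer cells of a type and less RNA per cell cannot be told apart.

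**Figure D1:**
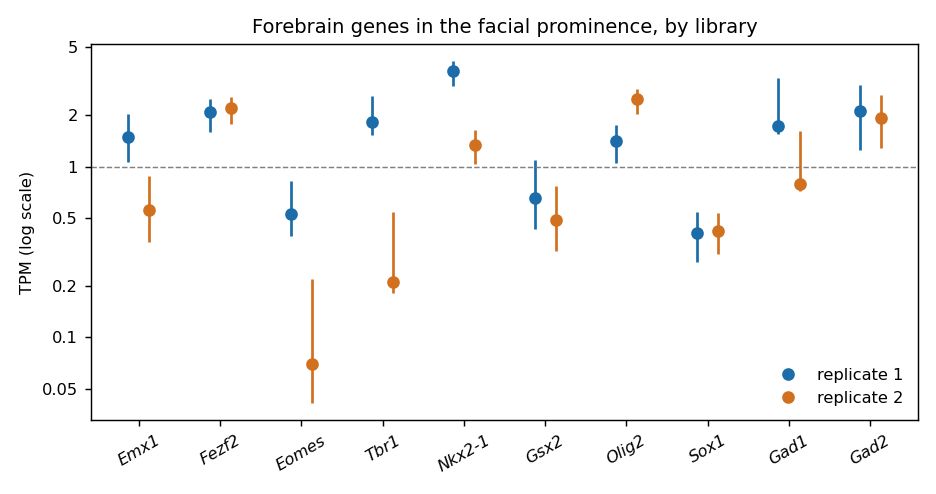
Level of each forebrain gene in TPM (log scale) in replicate 1 and replicate 2, with the authors' credibility interval as a line and 1 TPM dashed. Tbr1 and Eomes stand far lower in replicate 2, while Fezf2, Sox1 and Gad2 lie at nearly the same level in both libraries.

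The libraries differed for 5 of the 10 genes, each time in the same direction. A gene was counted as different when its log2 difference in TPM, with a pseudocount of 0.1 TPM, was over 1 or under -1. By this rule 5 of 10 genes were lower in replicate 2, namely Tbr1, Eomes, Nkx2-1, Emx1 and Gad1, and 0 were higher. Of the 15698 protein-coding genes with at least 10 summed counts, 0.924% were lower in replicate 2 by this rule, 1.17% were higher and 2.09% differed in either direction. Low genes vary more, so the share was also taken by level. Among genes with a mean under 1 TPM, 4.48% were lower in replicate 2 and 6.02% higher (10.5% in all), and 1 of 3 forebrain genes was lower. Among genes from 1 to 10 TPM, 0.959% were lower and 0.937% higher (1.9% in all), and 4 of 7 forebrain genes were lower. None of the 10 had a mean of 10 TPM or more, where 0.0439% of genes were lower and 0.0988% higher (0.143% in all). The median log2 difference was -0.70 over the 10 genes and 0.00 over protein-coding genes. These counts depend on the pseudocount: with 1 TPM, Tbr1 was the only one of the 10 past 2-fold, and 0.242% of protein-coding genes were.

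**Figure D2:**
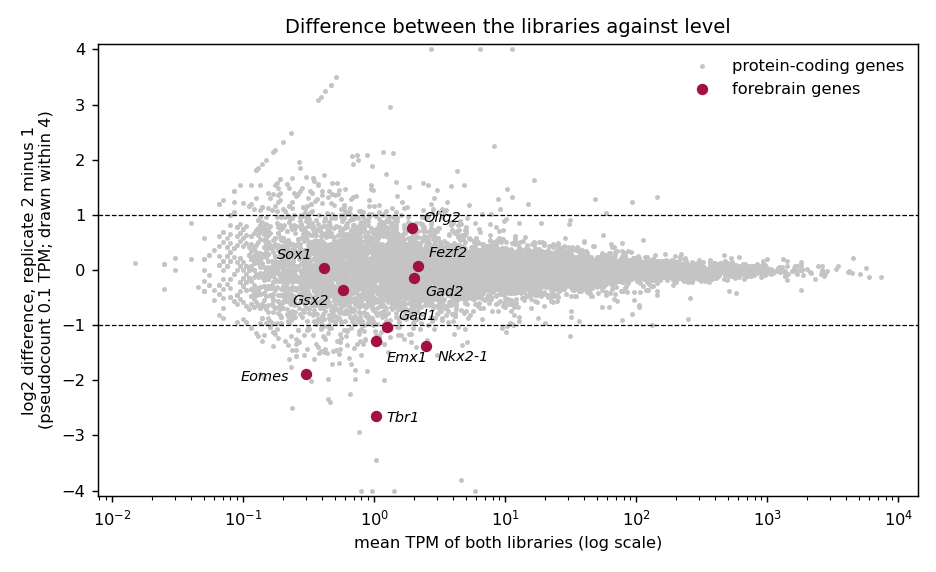
Log2 difference in TPM between the libraries (replicate 2 minus replicate 1) against mean TPM (log scale) for protein-coding genes in grey and the forebrain genes in red, with dashed lines at 1 and -1 and points beyond 4 drawn at 4. The forebrain genes spread from -2.65 for Tbr1 to 0.77 for Olig2, and the diagonal streaks of grey points are genes with 0 TPM in one of the libraries.

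The pallial genes held the largest differences. Tbr1 encodes a T-box factor of early-born glutamatergic neurons of the cortex and lies on chromosome 2, 61802930 to 61814114 (GRCm38). It had 104 counts and 1.84 TPM in replicate 1, with an authors' credibility interval of 1.53 to 2.58. In replicate 2 it had 18 counts and 0.21 TPM, with an interval of 0.183 to 0.542. The mean was 1.03 ± 1.15 TPM (SD, n = 2), the intervals did not overlap, and the log2 difference was -2.65. Scaled to the total counts, Tbr1 was 8.28 times as high in replicate 1 (95% interval from an exact conditional binomial calculation, 4.99 to 14.5). This interval and those of the other genes hold counting error alone, and leave out variation between pools, dissections and libraries. No molecular identifiers tell copies of 1 molecule apart, so even the counting error may be larger than the intervals show.

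Eomes, also called Tbr2, is a second T-box factor, which marks the intermediate progenitors of the cortex that give rise to such neurons (chromosome 9, 118478212 to 118486132). It had 30 counts and 0.53 TPM in replicate 1 and 5 counts and 0.07 TPM in replicate 2, a mean of 0.30 ± 0.325 TPM (SD, n = 2) and a log2 difference of -1.89. Its credibility intervals, 0.391 to 0.83 and 0.0412 to 0.219 TPM, did not overlap. The count ratio of replicate 1 over replicate 2 was 8.60, with an interval from 3.30 to 28.4 that the few reads of replicate 2 leave wide. Emx1, a homeobox gene of the dorsal telencephalon (chromosome 6, 85187438 to 85204462), had 36 counts and 1.5 TPM in replicate 1. It had 19 counts and 0.56 TPM in replicate 2, a log2 difference of -1.28. The count ratio was 2.72 (1.52 to 5.01), and the credibility intervals did not overlap.

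Fezf2 was the exception among the pallial genes. It encodes a zinc finger factor of the early forebrain and, later, of cortical neurons that project out of the cortex (chromosome 14, 12342094 to 12348189). Its level was 2.08 TPM from 80 counts in replicate 1 and 2.21 TPM from 121 counts in replicate 2. The mean was 2.15 ± 0.0919 TPM (SD, n = 2), the log2 difference was 0.08, and the count ratio of replicate 2 over replicate 1 was 1.06 (0.789 to 1.42). The pallial genes therefore did not shift by a common factor.

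The promoters of Tbr1 and Eomes, the genes that were lowest in replicate 2 relative to replicate 1, and of Olig2, which had the most positive log2 difference without passing 2-fold, are shown to compare what lies upstream of the genes at both ends of the list. Each line holds the 250 bases before the RefSeq start, from GRCm38.p6, plus strand, for Tbr1, Eomes and Olig2 in this order at chr2:61804203-61804452, chr9:118477939-118478188 and chr16:91225300-91225549.
Tbr1: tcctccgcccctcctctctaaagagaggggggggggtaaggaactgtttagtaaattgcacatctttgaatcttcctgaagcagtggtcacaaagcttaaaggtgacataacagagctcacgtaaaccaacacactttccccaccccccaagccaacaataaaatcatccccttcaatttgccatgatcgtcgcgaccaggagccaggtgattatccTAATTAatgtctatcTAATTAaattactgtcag
Eomes: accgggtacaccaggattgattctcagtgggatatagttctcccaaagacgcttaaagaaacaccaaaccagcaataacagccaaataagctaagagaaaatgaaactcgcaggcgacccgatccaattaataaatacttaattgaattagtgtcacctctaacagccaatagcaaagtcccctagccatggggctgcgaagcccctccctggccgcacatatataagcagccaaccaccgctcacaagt
Olig2: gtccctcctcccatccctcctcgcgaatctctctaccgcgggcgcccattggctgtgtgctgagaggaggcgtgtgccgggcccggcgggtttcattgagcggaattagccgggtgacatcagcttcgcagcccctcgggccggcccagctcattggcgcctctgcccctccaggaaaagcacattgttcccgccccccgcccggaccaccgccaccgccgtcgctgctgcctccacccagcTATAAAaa
Capitals mark the letters of the motifs searched on both strands, which did not overlap. TAATTA, the core read by many homeodomain factors, occurred 2 times before Tbr1 and in none of the other 9 promoters, and 4.84% of the 32851 RefSeq promoter windows hold it. TATAAA, the letters of the TATA box, stood before Olig2 and Gsx2 and, on the opposite strand, before Gad1, and 12.4% of windows hold it. The search did not weigh strand or distance from the start, so a match does not name a working TATA box. CATCTG, an E-box, stood before Gad2 (14.4% of windows). CAGCTG, another E-box (13% of windows), and TCACACC, a T-box site (3.33%), were in none of the 10 windows. The Olig2 window held 22 CG dinucleotides, the Eomes window 8 and the Tbr1 window 5, against a median of 6. The Tbr1 window lies inside the gene as GENCODE draws it, as do the windows of Emx1, Fezf2 and Gad1. The Olig2 window runs past the GENCODE start of Olig2, 91225457, and its marked TATAAA lies beyond that start. The Gad2 and Sox1 windows also run past the GENCODE starts, and the CATCTG of Gad2 lies beyond its start. For all these genes the 2 annotations set the start at different places.

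Nkx2-1 had the highest mean of the list. It is a homeobox gene of the medial ganglionic eminence and the hypothalamus, and outside the brain it is required in thyroid and lung (chromosome 12, 56531958 to 56536908). It had 144 counts and 3.66 TPM in replicate 1, with a credibility interval of 2.98 to 4.16. In replicate 2 it had 73 counts and 1.34 TPM, with an interval of 1.04 to 1.64. Replicate 1 was the higher library, with intervals that did not overlap and a mean of 2.5 ± 1.64 TPM (SD, n = 2). The log2 difference was -1.38 and the count ratio 2.83 (2.12 to 3.8).

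Genes of the places where Nkx2-1 is known to be active gave mixed values. Of 13 hypothalamic and diencephalic genes with at least 10 summed counts, 1 was past 2-fold. This was Otp, a factor of neuroendocrine hypothalamic neurons, with 1.14 TPM in replicate 1 and 0.41 in replicate 2 (log2 difference -1.28). Its list was led by Tcf7l2 (112.1 and 121.11 TPM), Rax (9.42 and 10.86) and Pomc (7.0 and 6.35), none of which is specific to the hypothalamus. Hmx3 was the lowest detected at 0.25 and 0.18 TPM, and Barhl2, with 2 counts in each library, was not detected. In a list for the pituitary, the gland below the hypothalamus, 3 of 7 such genes were lower in replicate 2 and 1 was higher. Of all protein-coding genes with at least 10 summed counts, 0.924% were lower and 1.17% higher. With means under 1 TPM the shares were 4.48% and 6.02%. Among the lower pituitary genes Hesx1 had 1.92 and 0.62 TPM and Lhx3 2.57 and 1.10, whereas Cga, a hormone subunit, had 1.62 and 3.84. Pomc and Six6 (4.85 and 6.88 TPM) were the highest of that list and Pou1f1 the lowest detected, at 0 and 3 counts. The thyroid gene Tg had 14 counts in each library, and the lung genes Sftpb and Sftpc had at most 1 count. Whether thyroid or lung tissue was present was not tested by these counts. Of 5 thyroid and lung genes with at least 10 summed counts, 0 were past 2-fold. In that list Hhex (7.09 and 6.33 TPM), Foxe1 (2.45 and 1.49) and Tshr (0.46 and 0.57) were highest. The part of the pituitary genes in the Nkx2-1 difference was not tested.

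Gsx2, a homeobox gene of the lateral ganglionic eminence (chromosome 5, 75075601 to 75077893), was low in both libraries. It had 18 counts and 0.66 TPM in replicate 1 and 19 counts and 0.49 TPM in replicate 2. The log2 difference was -0.37, with overlapping credibility intervals, and the interval of the count ratio of replicate 2 over replicate 1 (0.737) ran from 0.366 to 1.49. With so few reads a difference inside that interval was not detectable at this depth. Sox1, a neural progenitor gene that marks the early neural tube (chromosome 8, 12395295 to 12400126), had 0.41 TPM from 34 counts and 0.42 TPM from 49 counts. Sox1 was the steadiest gene of the list, with a log2 difference of 0.03 and a count ratio of 1.01 (0.636 to 1.61).

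Olig2 had the most positive difference of the 10 genes. It encodes a basic helix-loop-helix factor of ventral progenitors that make motor neurons and, later, oligodendrocytes (chromosome 16, 91225457 to 91228677). It had 58 counts and 1.42 TPM in replicate 1 and 144 counts and 2.49 TPM in replicate 2. Replicate 2 was higher by 0.77 on the log2 scale, short of the threshold, and by a count ratio of 1.73 (1.27 to 2.39). Its credibility intervals, 1.05 to 1.76 and 2.05 to 2.85 TPM, did not overlap. By this last measure the libraries were apart for 5 of the 10 genes, namely Tbr1, Eomes, Emx1, Nkx2-1 and Olig2. Intervals did not overlap for 10.7% of protein-coding genes with at least 10 summed counts. The share was 3.76% under 1 TPM, 7.81% from 1 to 10 TPM and 13.7% at 10 TPM or more.

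The relatives of Olig2 differed in the same direction and further. Olig1, which lies 41.1 kb from Olig2 as the next protein-coding gene, had 1.61 TPM in replicate 1 and 4.13 in replicate 2, a log2 difference of 1.31. Olig3, a gene of dorsal hindbrain and spinal cord progenitors, had 0.35 and 1.57 TPM, a difference of 1.89. In a midbrain and hindbrain list, 3 of 8 genes with at least 10 summed counts were higher in replicate 2, and 0 were lower. Of all such protein-coding genes 1.17% were higher, and 6.02% of those with means under 1 TPM. Olig3 and Phox2a, a factor of visceral motor neurons, were among the 3 higher genes of the list. Phox2a had 0 counts in replicate 1, where 3 counts would be 0.114 TPM, and 15 counts in replicate 2. With 3 counts put in for replicate 1, the count ratio of replicate 2 over replicate 1 would be 3.49. On the counts as they were, the interval of that ratio for counting error began at 2.5. En1 (1.20 and 1.28 TPM) and Gbx2 (2.59 and 1.79), among the highest of the list, were not past 2-fold, and En2 had at most 1 count. The median log2 difference of the list, 0.37, stays the same with Phox2a at 1.80, the log2 of the ratio of 3.49. In an oligodendrocyte list 1 of 7 genes, Olig1, was past 2-fold, while Pdgfra (96.58 and 93.16 TPM), Sox10 (17.63 and 16.35) and Nkx2-2 (0.20 and 0.28) were not. The part of hindbrain genes in the Olig2 difference was not tested.

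Gad1 and Gad2 encode the 2 enzymes that make GABA from glutamate. Gad1 also acts outside the brain, and mice without it have a cleft palate. Gad1 (chromosome 2, 70553072 to 70602014) had 73 counts and 1.73 TPM in replicate 1 and 47 counts and 0.79 TPM in replicate 2. Its log2 difference of -1.04 was just past the threshold, with a count ratio of 2.23 (1.52 to 3.28) of replicate 1 over replicate 2, but its credibility intervals overlapped. The difference was -0.56 on the transcript with most reads, short of the threshold, but that transcript is annotated as coding for no protein. The protein-coding transcript with most reads had 0.51 TPM in replicate 1 and 0.12 in replicate 2. Gad2 (chromosome 2, 22622205 to 22693874) had 118 counts and 2.12 TPM, and 140 counts and 1.92 TPM. That gene was nearly level, at -0.14 on the log2 scale, with a count ratio of 1.21 (0.937 to 1.55).

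The transcripts behind these levels showed that both Gad values rest partly on RNAs annotated as coding for no protein. Of 8 annotated Gad1 transcripts, the one with most reads was ENSMUST00000140478, a processed transcript of 2996 bases. It took 33.01 of the 73 counts in replicate 1 and 29.08 of the 47 in replicate 2. The protein-coding ENSMUST00000094934 of 3355 bases took 28.85 and 9.59 counts, or 0.51 and 0.12 TPM. For Gad2 a processed transcript of 721 bases, ENSMUST00000156728, had 11.33 and 15.91 counts, yet its short length gave it 49.09% and 53.79% of the TPM of the gene. The protein-coding Gad2 transcript of 5744 bases had 1.08 TPM in replicate 1 and 0.89 in replicate 2. Reads were divided between overlapping transcripts by the authors' estimate, so these shares are uncertain.

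Other genes of the list were simpler. Fezf2, Olig2 and Sox1 have 1 annotated transcript each, and Gsx2 had all its reads on 1 of 2. The main Tbr1 transcript of 3977 bases took 99.4 and 17.0 counts. Eomes reads fell on a transcript of 3560 bases in replicate 1 (28.15 counts) and on another of 2869 bases in replicate 2 (5.0 counts), too few to call a switch. Nkx2-1 was mostly the transcript of 2242 bases, at 80.6% and 90.99% of its TPM. Emx1 had 71.85% and 69.11% on its protein-coding transcript and the remainder on a retained intron.

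Genes that overlap or flank the 10 were checked, since the labels do not say whether strand was kept. Gad1os, antisense to Gad1, had 5 and 12 counts, and Gm26973, antisense to Nkx2-1, had 1 and 3. Sox1ot, which spans Sox1 on the same strand, had 46 and 49 counts, about as many as Sox1 itself, and the genes share 0 exonic bases in the annotation. Gm25239 within Sox1 and Gm23636 within Gad2, both annotated as microRNAs, had 0 counts. Of the 20 nearest protein-coding genes on either side, 15 had at least 10 summed counts, and 2 of these were past 2-fold, both higher in replicate 2. Of all such protein-coding genes 1.17% were higher. The 2 flanking genes were Olig1 and Slc4a10, a bicarbonate transporter gene 232.3 kb from Tbr1, with 5 and 22 counts. Psmd14, a proteasome gene 2.6 kb from Tbr1, had 161.01 and 163.05 TPM. Neither gene that flanks Tbr1 was lower in replicate 2.

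Paralogs gave the family context of each gene. Emx2 had 19.65 TPM in replicate 1 and 17.08 in replicate 2, which is 12.3-fold and 26-fold above Emx1. Sox2, a gene of neural and placodal progenitors, had 10.49 and 8.88 TPM, 20.8-fold and 17.3-fold above Sox1. Fezf1, a gene of olfactory epithelium and hypothalamus, had 5.83 and 6.01 TPM, 2.72-fold and 2.65-fold above Fezf2. In these 3 families the paralog was the more abundant gene in both libraries. The orders held in each pool, although all folds here are ratios of TPM with 0.1 TPM added.

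For Nkx2-1 the order was the other way. Nkx2-4 had 0.46 and 0.35 TPM and Nkx2-2 had 0.20 and 0.28 TPM, so that Nkx2-1 was 6.71-fold and 3.20-fold above the former. Olig2 was level with Olig1 in replicate 1 (log2 ratio -0.17) and below it in replicate 2 (-0.71). It was above Olig3 in both (1.76 and 0.63). Orders that changed between the libraries were those of Gsx2 and Gsx1 (0.51 and 0.82 TPM), Sox1 and Sox3 (0.61 and 0.39 TPM), and Eomes and Tbx21 (0.12 and 0.17 TPM from 5 and 10 counts). Eomes was below Tbr1 in both libraries (log2 ratios -1.62 and -0.87), and Gad1 was below Gad2 (-0.28 and -1.18).

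**Figure D3:**
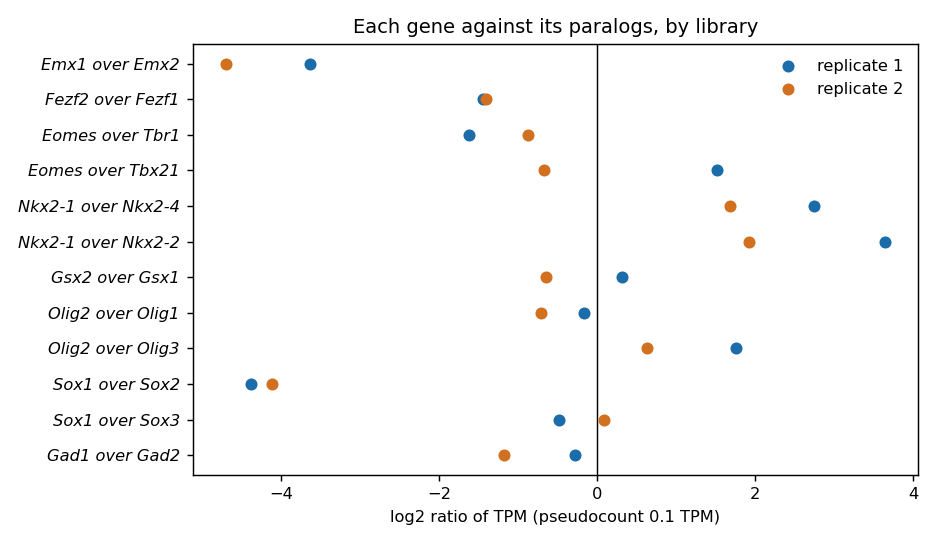
Log2 ratio of TPM (pseudocount 0.1 TPM) of each forebrain gene over a paralog, with 1 point per library. Emx1, Fezf2 and Sox1 lie left of 0 against Emx2, Fezf1 and Sox2 in both libraries, and Nkx2-1 lies right of 0 against both of its paralogs.

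Regulators that the telencephalon shares with other head tissues had a higher median than the 10 genes, and none differed 2-fold. All 18 telencephalic progenitor regulators had at least 10 summed counts, and 0 were past 2-fold. Their median was 4.56 TPM, and 16 reached 1 TPM in both libraries. Hes5 (30.9 and 24.34 TPM), Emx2 and Lhx2 (15.26 and 18.35) led, and Sox3 was lowest. The median log2 difference of this list was -0.02, and 9 of its genes lay on each side of 0. The summed level was 135 TPM in both libraries.

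Most neuron genes listed here had negative differences, short of 2-fold. Of 15 cortical neuron genes 14 were below 0, with a median of -0.34 and 0 past 2-fold. Of the 15698 protein-coding genes with at least 10 summed counts, 7565 were below 0 and 8027 above. Sox5 (44.1 and 42.04 TPM) and Bcl11b (34.15 and 32.28) led the list, and both are also used outside the brain. Neurod2, of maturing cortical neurons and the lowest of the list, had 27 and 17 counts and 0.51 and 0.23 TPM (log2 difference -0.89), and Neurod6 had 0.78 and 0.43 TPM (-0.73). Lhx5, of Cajal-Retzius and diencephalic cells, had 1.64 and 0.82 TPM (-0.92).

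All 10 pan-neuronal genes, markers shared by many neuron types, had negative differences, from -0.06 to -0.60 on the log2 scale with a median of -0.39, and none was at 0. Their summed level was 647 TPM in replicate 1 and 501 TPM in replicate 2, led by Tubb3 (166.54 and 121.42 TPM), Nefl (120.39 and 91.84) and Nefm (108.37 and 82.33). Elavl3 was lowest at 5.06 and 3.74 TPM. Of 9 cranial sensory neuron genes 7 were lower, with a median of -0.30. Isl1 (45.96 and 36.92 TPM) was among the highest of them, and 1 of the 9 was past 2-fold, higher in replicate 2. Of protein-coding genes with at least 10 summed counts, 1.17% were higher by that rule. The part of these neuron genes in the difference of the forebrain genes was not tested.

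**Figure D4:**
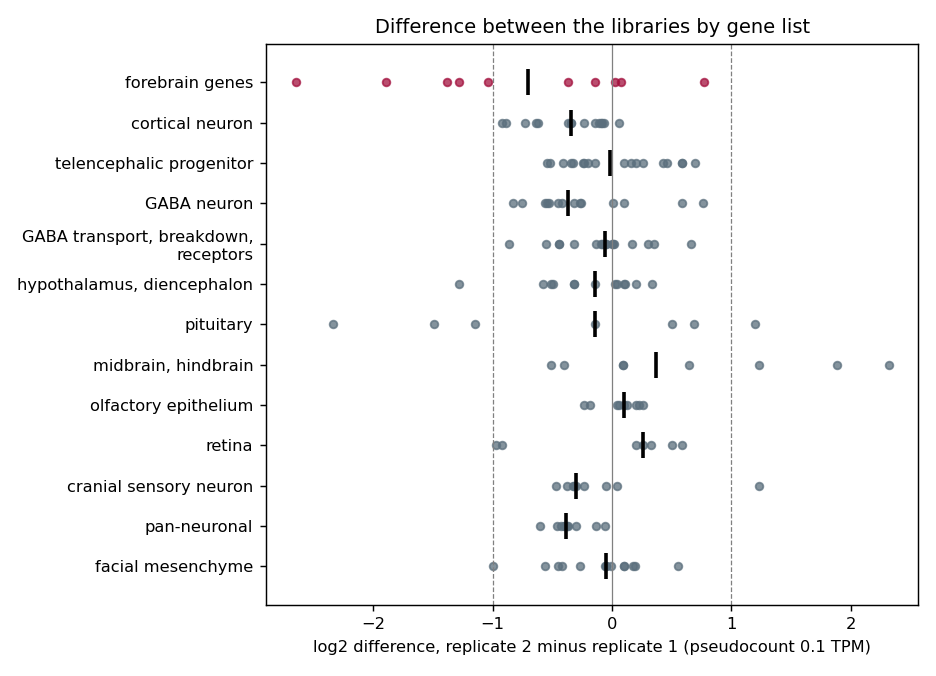
Log2 difference in TPM between the libraries (replicate 2 minus replicate 1, pseudocount 0.1 TPM) for genes with at least 10 summed counts, with 1 row per list, 1 point per gene and a black bar at the median. The forebrain genes have a median of -0.70 and reach -2.65, while the pan-neuronal genes lie between -0.60 and -0.06 and the midbrain and hindbrain genes have a median of 0.37.

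Regulators of GABA neurons were far more abundant than the enzymes, with a median of 9.26 TPM. Of 14 such regulators and peptides 10 were lower in replicate 2 (median -0.37), with 0 past 2-fold. Dlx5 (84.38 and 57.08 TPM), Dlx1 (72.09 and 53.87) and Lhx8 (60.44 and 50.05) were highest, and these also pattern facial mesenchyme. Gsx1 was lowest. Slc32a1, which encodes the vesicular GABA transporter, had 1.4 and 2.79 counts and was under the limit of 3 counts in both libraries. Gad1 and Gad2 had between 47 and 140 counts in the same libraries. Which cells the Gad reads came from was not tested.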

How the data were processed

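Total RNA libraries of 1 group (n = 2) were used as deposited. Per the deposited notes, reads were aligned to mm10 with GENCODE M4. The names of the aligner and quantifier were not found among these sources. The series title marks these data as superseded, and the newer version is not used here. Per the file headers, the deposited gene and transcript tables hold expected counts (estimated reads, shared between features that a read matches), TPM (with the spike-ins inside the total), a posterior mean TPM, FPKM, the percent of a gene's TPM per transcript, and signal bounds of a credibility interval of TPM whose level is not stated. All 20 counts of the 10 genes were whole numbers. Names, types and positions of genes were read from GENCODE M21 (GRCm38, the same build), which held 42462 of 43346 mouse IDs. Differences are log2((TPM + 0.1) in replicate 2 / (TPM + 0.1) in replicate 1), and count ratios were scaled by total expected counts. The script was tested on simulated data. Python 3.11.15 with numpy 2.4.6, pandas 2.3.3, scipy 1.17.1 and matplotlib 3.10.9 was used. Alternatives used edgeR 4.0.16 (TMM) and DESeq2 1.42.0 (size factors, 1 scaled count as pseudocount) under R 4.3.3, on counts rounded to whole numbers. No test was run, since the series has no contrast. Not detected means fewer than 3 expected counts in each library. The members and the lists were chosen with earlier results of these data known. Named were all 10 genes, their paralogs, overlapping and flanking genes and, of each list, the 3 highest, the lowest detected and those past 2-fold, except some genes that are counted in their lists but not reported here. Slc32a1, Neurod6, Lhx5, Tg, Sftpb, Sftpc, En2, Barhl2 and Pou4f2 fall outside this rule and were chosen after their values were seen.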

Additional observations from a re-analysis of the deposited data

How the results depend on the processing

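The 80 recomputed log2 differences of the 10 genes had the opposite sign in 0 cases, and Sox1 was at 0.00 in FPKM. They used other pseudocounts, posterior mean TPM, FPKM, mouse genes only, TMM and DESeq2 scaling, and the transcript with most reads. The last was chosen after seeing the data. Another pseudocount cannot change a sign, and most other settings rescale the same reads. For Fezf2, Olig2, Sox1 and Gsx2 the transcript with most reads held all reads of the gene. The kept signs were thus largely fixed in advance and do not measure how far pools vary. The number of genes past 2-fold, 5, was 1 (Tbr1) with a pseudocount of 1 TPM and 2 (Tbr1 and Eomes) past 3-fold. It was 4, without Gad1, in posterior mean TPM and for the transcript with most reads, which for Gad1 is not a protein-coding one. The share of protein-coding genes past 2-fold, 2.09%, was 0.833% with at least 50 summed counts, 3.6% with a pseudocount of 0.01 TPM, 0.242% with 1 TPM and 1.08% in posterior mean TPM. The number of genes at 1 TPM in both libraries, 4, was 1 at a minimum of 2 TPM and 2 at 1 FPKM, and between 4 and 7 with either replicate left out. For Gad2 the mean fell from 2.02 to 0.985 TPM on its main transcript, and for Gad1 from 1.26 to 0.53 on its processed transcript with most reads. The median over the 10 genes was between 0.675 and 1.61 TPM with either replicate left out. The cause of these shifts was not tested. Differences between libraries need both, so none could be recomputed without a replicate. No paired analysis was possible because the series has 1 group. Depth limits Eomes and Gsx2 most, at 5 to 30 counts per library.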

Other observations

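GABA signalling genes outside the synthesis enzymes were measurable in the face. Of 19 genes for GABA transport, breakdown and receptors, 12 (63.2%) were at 1 TPM or more in each library. That share was close to the 61.8% of all protein-coding genes. Of the 18 with at least 10 summed counts 0 were past 2-fold (median log2 difference -0.06). Abat, which breaks GABA down, led with 30.98 and 29.37 TPM, followed by Gabbr1 (16.89 and 16.27), a subunit of the metabotropic receptor, and Aldh5a1 (7.04 and 6.71), the next enzyme of the same route. Gabrg1, at 5 and 9 counts, was the lowest detected.

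Genes listed for sensory epithelia next to the forebrain differed by less than 2-fold, and those of the olfactory epithelium lay between -0.23 and 0.26 on the log2 scale. Of the 15698 protein-coding genes with at least 10 summed counts, 8027 were above 0 and 7565 below. In the olfactory epithelium list 7 of 9 genes were higher in replicate 2 (median 0.10, 0 past 2-fold), led by Gap43 (112.02 and 98.66 TPM), Ebf2 (23.95 and 26.25) and Lhx2 (15.26 and 18.35), with Omp lowest at 0.36 and 0.38. In the retina list 5 of 7 genes with at least 10 summed counts were higher (median 0.26). Lhx2, Pax6 (11.32 and 17.11 TPM) and Atoh7 (15.0 and 7.59) led it. Atoh7 and Pou4f2 (0.92 and 0.44), both of retinal ganglion cells, were the 2 genes lower in replicate 2, at -0.97 and -0.92, and Crx, of photoreceptors, had 3 and 0 counts. The differences of Atoh7 and Pou4f2 were singled out after their values were seen.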
